A study of Drosophila melanogaster with 2 samples.

Results

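Synapse and neuronal channel genes were examined as possible binding regions of sens-2, a Drosophila zinc finger protein related to the transcription factor Senseless. The 37 genes were taken from a list written by function, out of 13968 protein-coding genes on the assembled chromosomes. They comprised 11 vesicle release genes, 5 transmitter genes, 7 potassium channel genes, 5 adhesion genes, 4 receptor genes, 1 cytoskeletal gene and 4 sensory channel genes. All 37 symbols were found in the annotation. The domain of a gene was its body plus 2 kb upstream, and a gene was counted as holding a peak when the peak's summit, its highest point, lay in the domain.

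The peaks came from chromatin immunoprecipitation with sequencing of whole Drosophila melanogaster embryos aged 0 to 24 h. All embryos were of the strain sens-2-GFP, transgenic for a sens-2-eGFP fusion protein, and the precipitation used an anti-GFP antibody per the sample description, while the antibody label names sens-2. There was 1 group with 2 biological replicates, and control libraries were not analysed here. No expression was measured, and in whole embryos a peak carries no information on the cell type it came from.

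A chemical synapse releases transmitter when SNARE proteins on vesicle and plasma membrane pull the membranes together, a step triggered by calcium through synaptotagmin. Active zone proteins hold vesicles next to calcium channels, neurexin and neuroligins join the membranes across the cleft, and potassium channels end the action potential. Most of these genes are known for their use in differentiated neurons. Senseless itself is known from sensory organ precursors, and its binding core is written AAATCA.

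Sequences at the summits are given for 6 genes, because they show which member sites carried the AAATCA letters and which did not. Each run is of the plus strand of dm6 and covers the summit and 50 bases on each side, and capitals mark AAATCA. The first 4 summits are from the list that compared both replicates, the ChAT summit from a second such list and from replicate 1, and the nan summit from replicate 2 alone.
Nrx-1, chr3R:22469249-22469349: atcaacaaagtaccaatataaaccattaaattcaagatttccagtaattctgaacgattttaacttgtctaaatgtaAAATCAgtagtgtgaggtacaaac
Nmdar1, chr3R:5518711-5518811: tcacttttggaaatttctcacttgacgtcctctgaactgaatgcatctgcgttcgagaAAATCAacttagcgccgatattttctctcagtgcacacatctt
cpx, chr3R:4281775-4281875: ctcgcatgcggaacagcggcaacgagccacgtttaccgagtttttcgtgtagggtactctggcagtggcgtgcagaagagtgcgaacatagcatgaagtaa
Syt1, chr2L:2801365-2801465: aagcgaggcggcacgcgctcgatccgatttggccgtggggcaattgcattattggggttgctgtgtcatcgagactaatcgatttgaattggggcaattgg
ChAT, chr3R:18719917-18720017: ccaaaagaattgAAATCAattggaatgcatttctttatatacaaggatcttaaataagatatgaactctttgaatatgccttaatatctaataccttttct
nan, chr3L:14190117-14190217: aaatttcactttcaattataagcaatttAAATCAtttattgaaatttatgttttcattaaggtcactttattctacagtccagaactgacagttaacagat

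Of these runs, Nrx-1, Nmdar1, ChAT and nan held AAATCA once each, and cpx and Syt1 held it on neither strand. The letters began 27 bases after the summit at Nrx-1 and 8 bases after it at Nmdar1. The GC content was 28.7% at Nrx-1, 41.6% at Nmdar1, 25.7% at ChAT and 24.8% at nan, against 53.5% at both cpx and the Syt1 summit shown. Of the member summits not printed, sei was at 23.8% GC, brp at 50.5% and the second Syt1 summit at 43.6%, all without the letters. Sites without AAATCA thus included the most AT-rich of the conservative member summits, sei, and the most GC-rich.

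Peak lists were of 2 kinds. A ranked list held the peaks before any cut on reproducibility, and a thresholded list kept peaks of high reproducibility, with a score of 830 or more, which is an irreproducible discovery rate of 0.01 on the scale of the IDR tool. The conservative thresholded list held 2883 peaks on assembled chromosomes with a median signal of 78.6, and its parent ranked list, here the joint ranked list, held 142231. A second list across both replicates held 3145 peaks. The own thresholded lists held 1960 peaks for replicate 1 and 1636 for replicate 2, cut from 117153 and 93828 ranked peaks. Signal is the authors' peak strength, whose normalization is not stated, so it is compared only within a list.

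In the conservative list, 6 of the 37 genes held a summit, which was 16.2% (exact 95% interval 6.19 to 32.0%, covering counting error only). Over all protein-coding genes the share was 17.9%, near that of the members. The 2 shares are not matched for length, since the median domain was 21.6 kb for members and 4.16 kb for all protein-coding genes. Shares by domain length are given below. The 6 genes were brp, Syt1, cpx, sei, Nrx-1 and Nmdar1, with 7 summits in all because Syt1 held a pair of them. Peaks within 500 bp of a gene's own start were found at 3 of the 37 genes, cpx, sei and Nrx-1, beside 10.6% of all protein-coding genes.

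By role, 3 of 11 vesicle release genes, 1 of 7 potassium channel genes, 1 of 5 adhesion genes and 1 of 4 receptor genes held a summit. None of the 5 transmitter genes, the 4 sensory channel genes or futsch, which encodes a microtubule protein of axons, held one in the conservative list. With so few genes per role the exact intervals overlap throughout: that of vesicle release runs from 6.02 to 61.0%, and 0 of 5 transmitter genes allows up to 52.2%. No order of the roles can be read from these counts.

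**Figure D1:**
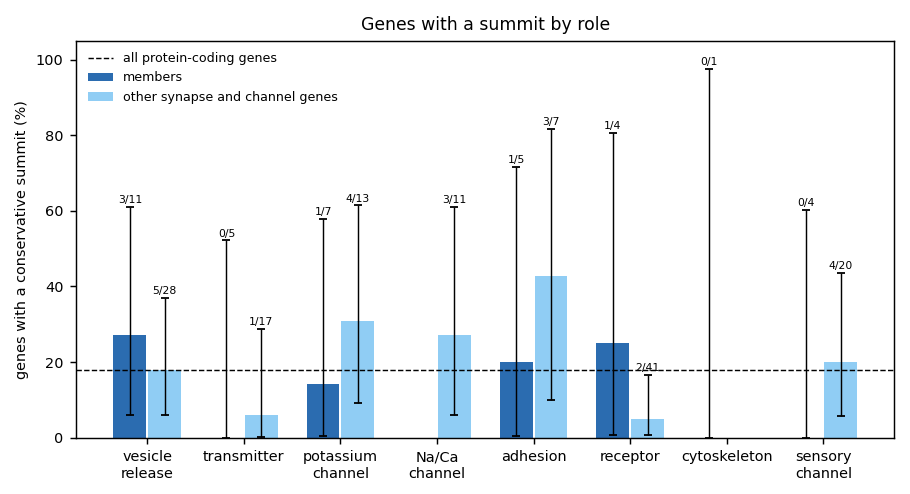
Share of genes with a conservative summit (percent, vertical axis) by role, for the members and for other synapse and channel genes, with exact 95% intervals as error bars, counts above the bars and the share of all protein-coding genes as a dashed line. The member intervals overlap each other in every role, and vesicle release has the most genes with a summit, 3 of 11. The dashed line is not matched for domain length.

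The 7 summits were weak for their list. Their median signal was 54.9 beside 78.6 for the whole conservative list, and only Nrx-1 was above that median. Their places in the list, counted from the strongest of 2883, ran from 1084 for Nrx-1 to 2817 for the weaker Syt1 summit.

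Among vesicle release genes, brp encodes the active zone scaffold Bruchpilot. Its summit (2R, 9527052 to 9527347) lay in an intron, 10749 bp downstream of the nearest own start and in the span of all 14 annotated transcripts. The signal was 54.9 in the conservative list, 25.9 in the replicate 1 ranked list and 32.5 in the replicate 2 ranked list. The replicate scores of 204 and 808 were both under the threshold, so neither replicate's own list held the peak, although the second list across replicates did.

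Syt1 encodes synaptotagmin 1, the calcium sensor of fast release. Its pair of summits lay upstream of the start used by 7 of 8 transcripts, at 1436 and 1659 bp, in intergenic sequence, within overlapping peaks (2L, 2801267 to 2801562 and 2801490 to 2801785). Their conservative signals were 48.0 and 20.9, places 2719 and 2817. In the ranked lists, 27.8 in replicate 1 and 28.9 in replicate 2 were the strongest peaks that overlapped them, with scores of 40 and 567. Both summits were absent from the second list and from each replicate's own list.

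The third gene, cpx, encodes complexin, a small protein that binds assembled SNAREs. Its summit (3R, 4281677 to 4281972) lay 13 bp upstream of a start used by 3 of its 21 transcripts, and 1604 bp into the gene as annotated from its first start. The signal was 52.4 in the conservative list, 29.8 in the replicate 1 ranked list with a score of 47, and 24.2 in the replicate 2 ranked list with a score of 192. This peak too was found only in the conservative list among the thresholded ones.

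The SNARE gene Syx1A, which encodes syntaxin, held no conservative summit but the strongest joint ranked peak of the remaining vesicle genes, with a signal of 57.9 and a joint score of 209. At that site, 679 bp upstream of its start, the replicates were far apart: the peak was within the top 1.01% of the replicate 2 list, with a signal of 43.5 and a score of 1000, and within the top 22.9% of the replicate 1 list, with a signal of 16.8. The domains of eIF4EHP and CG10694 also cover the site.

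Snap25, the partner SNARE of the plasma membrane, had the longest domain of the members at 227 kb and no summit. The nearest conservative summit outside that domain was 1127 kb away, so the gene and its region cannot be told apart here. The strongest ranked signals of Snap25 were 30.8 in replicate 1 and 18.8 in replicate 2, at sites 5095 bp apart. For nSyb, the vesicle SNARE, they were 34.3 and 16.0 at sites 87 bp apart, and the strongest joint peak there lay at a start of the neighbouring gene Bgb. All 3 core SNARE genes were thus without a conservative summit.

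The priming factor unc-13 is on chromosome 4 and held no ranked peak in any list used here. Chromosome 4 carried 60.8 joint ranked peaks per Mb beside 1106 per Mb on 2L, and none of its 80 protein-coding genes held a conservative summit, so the gene and its chromosome cannot be told apart here. On the X, the presynaptic calcium channel gene cac held 16 joint ranked peaks in 55.8 kb, or 0.287 per kb, where the median gene had 1.20. Its strongest joint signal was 27.7, the lowest of the vesicle release genes with a ranked peak.

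No gene of transmitter synthesis or packaging held a conservative summit. ChAT, the enzyme that makes acetylcholine, is described because other thresholded lists held it, a choice made after its values were seen. Its peak (3R, 18719819 to 18720114) had a signal of 77.0 at place 1505 of 3145 in the second list across replicates, and 63.6 in replicate 1's own list. The joint score was 739, under the threshold. Replicate 2 had a ranked signal of 17.0 there with a score of 241, so the peak was strong in replicate 1 and modest in replicate 2.

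The ChAT summit lay 14466 bp from the gene's only start and 344 bp downstream of the start of the noncoding RNA gene lncRNA:CR46265, inside the span of both ChAT transcripts. ChAT and VAChT, the vesicular acetylcholine transporter, share a first exon and start, and their domains overlap, but this summit was beyond the end of VAChT. The strongest joint signal in the VAChT domain was 29.1. VGlut, the vesicular glutamate transporter, reached 45.7 in the joint ranked list with a score of 664, from 24.1 in replicate 1 and 19.5 in replicate 2 at sites 84 bp apart. Gad1, for GABA synthesis, and Vmat, for monoamine packaging, reached 36.3 and 34.3.

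Among potassium channels, sei, the ERG-type channel seizure, held the only conservative summit. The peak (2R, 24048926 to 24049221) had a signal of 71.3 and a score of 1000 in the conservative list, 50.2 in replicate 1 and 22.3 in replicate 2. The replicate 1 score of 827 fell just short of 830, and the replicate 2 score was 207. The summit lay 129 bp upstream of the internal start used by 2 of 3 transcripts and in the domain of the neighbouring gene gammaSnap1 as well.

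The other 6 potassium channel genes had strongest joint signals from 31.6 to 46.7, all without a summit. Slo, the calcium-activated channel slowpoke, reached 29.0 in replicate 1 and 21.2 in replicate 2, at sites 21147 bp apart. Sh, the founding voltage-gated channel Shaker, reached 23.5 and 22.3, at sites 76263 bp apart in its 141 kb domain. At Shaw the strongest peaks of the replicates were 3 bp apart, 26 bp from the gene's start, with signals of 26.5 and 17.8 and a joint score of 655. Shaw was thus the channel gene without a summit in which the replicates placed their strongest peak most closely together.

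Nrx-1 encodes neurexin, the presynaptic partner of the neuroligins, and held the strongest member summit. The peak (3R, 22469151 to 22469446) had a signal of 94.3 in the conservative list, 69.7 in replicate 1 and 29.2 in replicate 2, which placed it in the top 0.674% and 2.30% of the ranked lists. Its score was 1000 in replicate 1 and 713 in replicate 2, so only replicate 1's own list held it. The summit was 118 bp downstream of an internal start used by 1 of 9 transcripts, and the domain of CG5377 also covers it.

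None of the neuroligin genes Nlg1, Nlg2, Nlg3 and Nlg4 held a summit in any of the thresholded lists, although their domains of 33.8 to 71.2 kb were longer than that of Nrx-1 at 20.5 kb. Their strongest joint signals ran from 33.2 to 39.1, all lower than the Nrx-1 value. Nlg2 lies on 2L with a gap of 33.9 kb between its domain and that of sens-2, the tagged gene, and had the lowest strongest signal of the 4.

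Nmdar1, a subunit of the NMDA-type glutamate receptor of neurons, was the receptor gene with a summit. The peak (3R, 5518613 to 5518908) lay in an intron, 4567 bp from its own start and 1644 bp from a start of Itpr, whose domain also covers it. The signal was 70.6 in the conservative list, 44.4 in replicate 1 with a score of 1000, and 19.2 in replicate 2 with a score of 68. GluRIIA, GluRIIB and GluRIIC, subunits of the glutamate receptor of muscle, reached only 29.4, 20.1 and 26.9 in the joint ranked list. The GluRIIA and GluRIIB domains overlap, but their strongest joint peaks were different peaks, each outside the shared stretch.

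The sensory channel genes held no conservative summit. The gene nan, a TRPV channel subunit of stretch-sensitive chordotonal neurons, is described because replicate 2's own list held it, a choice made after its values were seen. That peak (3L, 14190039 to 14190294) had a signal of 30.8 and a score of 928, 519 bp upstream of the start of nan and in the domain of nuf. No ranked peak of replicate 1 overlapped it, and its joint signal was 29.7 with a score of 51. The strongest joint peak of the nan domain, 46.5, was elsewhere, 16 bp from a start of nuf. The partner subunit iav, the mechanosensory channel nompC and the sodium channel ppk of multidendritic neurons reached 28.3, 27.8 and 34.6.

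**Figure D2:**
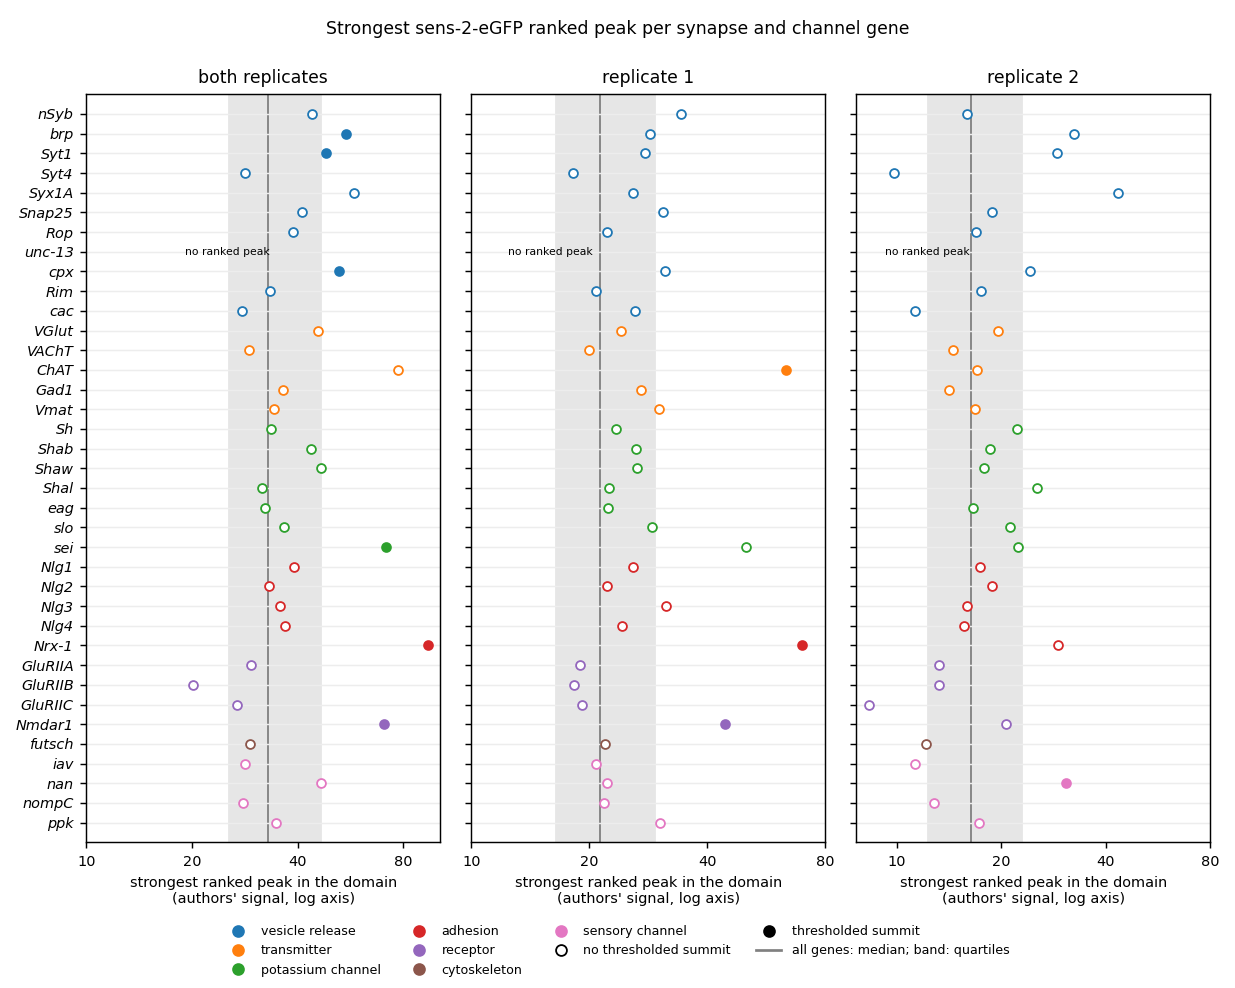
Strongest ranked peak in the domain of each of the 37 genes (authors' signal, logarithmic horizontal axis) in the joint ranked list and in each replicate's ranked list, with points coloured by role and filled where the matching thresholded list held a summit. Grey bands are the quartiles and grey lines the medians over all protein-coding genes, not matched for domain length. Filled genes number 6 in the joint panel, 3 in replicate 1 and 1 in replicate 2.

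**Figure D3:**
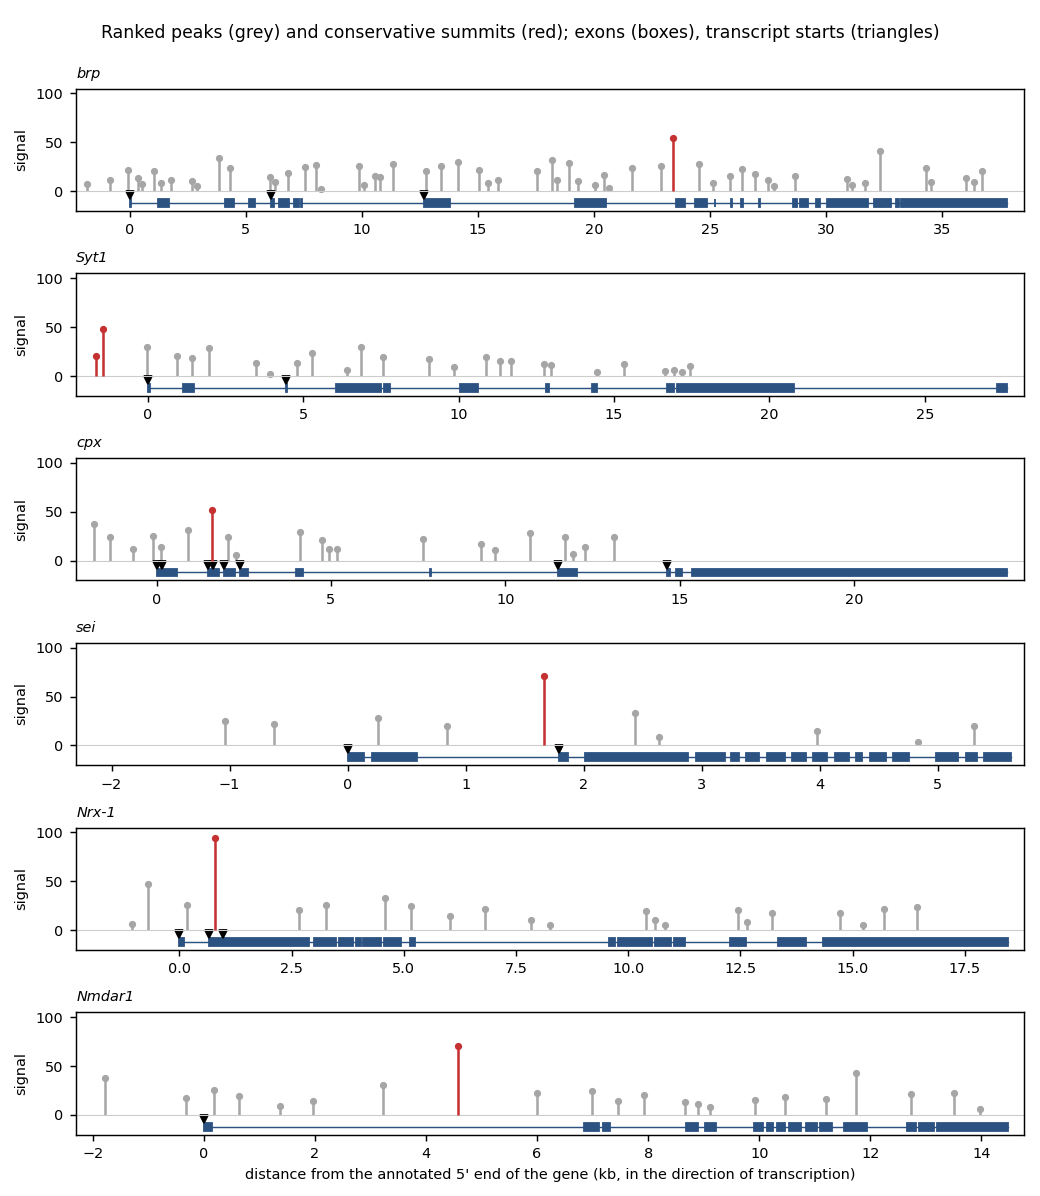
Joint ranked peaks (signal, vertical axis) along the 6 genes with a conservative summit, by distance from the annotated 5′ end in kb, with conservative summits in red, other ranked peaks in grey, exons as boxes and transcript starts as triangles. The summits of cpx, sei and Nrx-1 stand next to an internal start, those of brp and Nmdar1 in introns, and the Syt1 pair upstream of the gene.

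Seen by position, 3 of the 7 member summits were at a promoter, within 500 bp of a transcript start, 2 were in introns and 2 were intergenic. Over all conservative summits the shares were 44.2%, 38.0% and 15.6%. The intergenic member summits were the Syt1 pair, whose peaks overlap, so a single gene gave both. For 6 of the 7 the nearest start belonged to the member itself, Nmdar1 being the exception.

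AAATCA was found on either strand within 50 bases of the summit at 2 of the 7 member summits and at 17.9% of all 2883. The shuffled letters CATAAA and TACAAA were found at 0 and 1 member summits, beside 13.1% and 12.7% of all. The homeodomain core TAATTA and the palindrome TATCGATA were at no member summit, beside 8.53% and 1.25% of all. The median GC content of the 7 windows was 43.6%, beside 35.6% over all summits. In replicate 1's own list all 3 member summits, at ChAT, Nrx-1 and Nmdar1, held AAATCA, beside 16.2% of that list. The shuffled TACAAA was at 1 of the 3, beside 14.2%, and CATAAA at 0, beside 14.1%. In replicate 2's own list the 1 member summit, at nan, held both AAATCA and the shuffled CATAAA, beside 18.3% and 13.1%. These counts are descriptions of few sites.

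Domain length bears on every such count, since a longer domain can hold more summits. The median member domain was 21.6 kb, from 4.64 kb for Rop to 227 kb for Snap25, beside 4.16 kb for all protein-coding genes. Among domains of 10 to 30 kb, 4 of 12 members held a summit, beside 34.4% of all such genes, and under 10 kb 1 of 11, beside 13.8%. Among domains of 30 to 100 kb, 1 of 12 members held one, brp, which was 8.33% (exact 95% interval 0.211 to 38.5%), beside 47.0% of the 634 protein-coding genes of that length. Neither of the 2 members over 100 kb, Snap25 and Sh, held one, beside 49.4%. The Snap25 domain was 1127 kb from the nearest summit outside it.

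The long members without a summit were unc-13, Rim, cac, Shab, eag, slo, Nlg1, Nlg2, Nlg3, Nlg4 and futsch. Over all members of 30 to 100 kb with a ranked peak, brp included, the median strongest joint signal was 35.7, beside 51.4 for all genes of that length. At 10 to 30 kb it was 46.2, beside 44.4. A summit and a strong ranked peak are measures of the same list, so these medians are not separate from the counts. The replicates gave the same order in the long class, 25.8 beside 32.6 in replicate 1 and 17.4 beside 25.6 in replicate 2. Over the merged member domains there were 7 summits in 1.26 Mb, or 5.56 per Mb (exact Poisson 95% interval 2.24 to 11.5, counting error only), beside 24.6 per Mb over the domains of all protein-coding genes and 21.0 per Mb over the assembled chromosomes. Joint ranked peaks, counted over the same merged domains, came to 1.06 per kb for members and 1.10 per kb for all protein-coding genes. No test was made of these differences, and the members were not drawn at random.

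**Figure D4:**
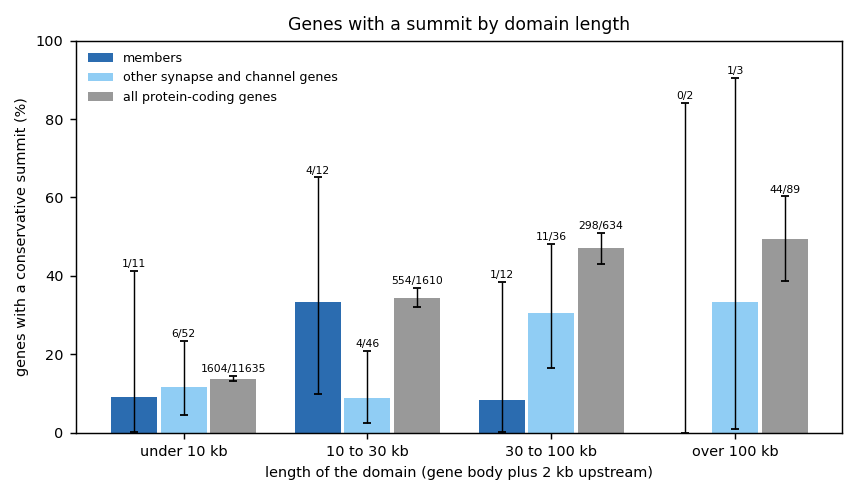
Share of genes with a conservative summit (percent, vertical axis) by length of the domain, for members, other synapse and channel genes and all protein-coding genes, with exact 95% intervals and counts above the bars. Among domains of 30 to 100 kb, 1 of 12 members holds a summit beside 298 of 634 protein-coding genes.

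The replicates differed in which members they called. Replicate 1's own list held ChAT, Nrx-1 and Nmdar1, which was 8.11% of the members beside 13.5% of all protein-coding genes. Replicate 2's own list held nan alone, which was 2.70% beside 11.9%. No member was held by both. The second list across replicates held brp, ChAT, sei, Nrx-1 and Nmdar1, or 5 of 37, beside 19.1% of all genes. Of these, 4 genes were in both lists across replicates. The overlap of lists over all protein-coding genes is not given here, so the overlaps among members have no background beside them.

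The count also moved with the definition of a hit. Summits at or above the median signal of the conservative list left Nrx-1 alone, 1 of 37, beside 10.9% of all protein-coding genes. Gene bodies without upstream sequence held a summit at 5 members, all of the 6 except Syt1, beside 8.56% of all genes. With 5 kb upstream there were 10 of 37, with Syx1A, Rim, eag and nompC added, beside 23.6%. Within 1 kb of an own start there were 3, beside 13%. By nearest start there were 7, with Syx1A and ppk added and Nmdar1 lost, beside 14.5%, and by an overlap of 1 bp the same 6, beside 18.5%.

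Across the 36 members with a ranked peak, the strongest signals of the replicates had a Spearman correlation of 0.50, beside 0.65 over 12502 protein-coding genes. The points share the libraries and differ in domain length, and some members share a domain. The strongest peaks of the replicates lay within 150 bp of each other in 7 of 36 members, or 19.4%, beside 33.9% of all genes. Among members of 30 to 100 kb this was so for 1 of 11, beside 33.8%.

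Of the 30 members without a conservative summit that had a ranked peak, the strongest joint signal ran from 20.1 at GluRIIB to 77.0 at ChAT, with a median of 34.4, and the score of that peak ran from 25 to 739. By the worse of their places in the replicates' ranked lists, the highest were Syx1A in the top 5.21%, slo in the top 5.43%, VGlut in the top 7.02%, Sh in the top 7.19% and Snap25 in the top 7.98%. These places take the strongest peak of each replicate wherever it lay in the domain: the pair was 84 bp apart at VGlut, and 2501 bp at Syx1A, 21147 bp at slo, 76263 bp at Sh and 5095 bp at Snap25. Median strongest joint signals by role were 42.5 for vesicle release, 36.3 for transmitter genes, 36.6 for potassium channels, 36.9 for adhesion, 28.1 for receptors and 31.4 for sensory channels, with ranges that overlapped in all 6 roles. Over all 36 members the median was 36.4, beside 32.9 for all protein-coding genes, which is not matched for domain length. By length, the member median was higher under 10 kb, at 34.6 beside 30.7, and at 10 to 30 kb, at 46.2 beside 44.4. It was lower at 30 to 100 kb, at 35.7 beside 51.4, and over 100 kb, at 37.4 beside 57.8.

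Of a wider list of 137 other synapse and channel genes, 22 held a conservative summit, or 16.1% (exact 95% interval 10.3 to 23.3%). The share over all protein-coding genes was 17.9%, but the 2 shares are not matched for length. The median domain was 14.1 kb in the wider list and 4.16 kb over all protein-coding genes. The wider list held 8.34 summits per Mb, beside 24.6 per Mb over the domains of all protein-coding genes. Among its domains of 30 to 100 kb, 11 of 36 held one, or 30.6% (exact 95% interval 16.3 to 48.1%), beside 47.0% of all such genes. At 10 to 30 kb it was 4 of 46, or 8.70% (interval 2.42 to 20.8%), beside 34.4%. Under 10 kb it was 6 of 52, or 11.5%, beside 13.8%. In each length class the interval overlapped that of the members. Among 28 further vesicle genes 5 held one, led by Rab3, a vesicle GTPase, at 113, synapsin gene Syn at 111 and comt, the NSF ATPase that takes SNAREs apart, at 77.7. Among 13 further potassium and related channels 4 held one, led by KCNQ at 203, the inward rectifier Irk1 at 127 and Elk at 71.9.

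Sodium and calcium channel genes held one at 3 of 11, namely NaCP60E at 197, Ca-beta at 83.6 and Ca-alpha1T at 82.6. Adhesion and scaffold genes held one at 3 of 7, namely the teneurin Ten-a at 135, the scaffold dlg1 at 77.6 and Fas2 at 65.1. Of 41 transmitter receptor genes 2 held one, nAChRalpha5 at 149 and DopEcR at 59.0, which was 4.88% (exact 95% interval 0.596 to 16.5%). The share over all protein-coding genes was 17.9%, and 34.4% for domains of 10 to 30 kb, the class of the median receptor domain at 20.4 kb. Of 17 transmitter genes 1 held one, Gabat, for GABA breakdown, at 164, and of 20 sensory channel genes 4 did, led by Piezo at 172, Trpm at 146 and pyx at 87.0. Median domains differed by role. Those of vesicle, potassium and sodium or calcium channel genes, at 15.0, 26.0 and 26.7 kb, were in the class at 34.4%. The adhesion median of 75.2 kb was in the class at 47.0%. Transmitter and sensory medians, 8.14 and 6.68 kb, were in the class at 13.8%. The exact intervals of these roles overlap throughout.

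In 10 of the 22 genes the start nearest to the strongest summit was that of a different gene. This was RpL41 for NaCP60E, Acbp1 for Piezo, NimC4 for nAChRalpha5 and CG7668 for Gabat. Of the other genes named above, it was CG7220 for Rab3, Timp for Syn, mlt for KCNQ, CG14492 for Elk and CG33229 for pyx. In 2 of the 10, NaCP60E and Piezo, the summit was within 500 bp of the gene's own start as well. Of the 22 strongest summits, 1 per gene, 13 were above the median signal of the conservative list. Taken the same way, 1 of the 6 members with a summit, Nrx-1, was above it. Replicate 1's own list held a summit in 18 of the 22 domains and replicate 2's own list in 12, beside 2 and 0 of the 6 member domains with a conservative summit. The same shares over all protein-coding genes with a conservative summit are not given here. These overlaps thus have no background beside them, and neither set can be called unusual.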

How the data were processed

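The deposited files were 8 peak lists on dm6 in narrowPeak form, and which aligner and peak caller made them is not given in the sources used here. By the labels' account, chromatin was sonicated to 200 to 800 bp. Each peak has a signal and a score that the authors deposited. The signal has no stated normalization, and the score, at most 1000, follows the irreproducible discovery rate. Read depth is unknown, so precision rests on 2 replicates and the counts of peaks. The 4 per-replicate signal columns of the joint ranked lists, which carry no replicate name, were not used. The joint ranked list used was the one that held all 2883 conservative peaks.

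Summits were placed with Python 3.11.15, pandas 2.3.3, NumPy 2.4.6 and SciPy 1.17.1 on Ensembl release 115 gene models (BDGP6.54, the same release 6 assembly as dm6), and figures drawn with matplotlib 3.10.9. Coordinates are 1-based. Sequences are from the RefSeq release 6 genome. Counting was tested on simulated peaks. Exact binomial and Poisson intervals are at 95%. No significance test was made, since there is 1 group.

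The members and lists were chosen with earlier results of these data known. Of 139 wider-list symbols 137 matched, 4 of them through RefSeq synonyms. Members with a conservative summit were described in full, of the rest the 5 highest by the worse of their replicate ranks, and of the wider list up to 3 genes per role by signal. Alternatives were other lists, domains, assignments, windows and overlaps.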

Additional observations from a re-analysis of the deposited data

Results flagged for a closer look

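Syx1A was the only member with a peak at or above the threshold score of 830 that the matching thresholded list lacked. In the replicate 2 ranked list its peak 700 bp upstream of the start (3R, 24106335 to 24106590) had a signal of 43.5 and a score of 1000, and replicate 2's own thresholded list did not hold it. In the second ranked list across replicates the peak there had a signal of 57.9 and a score of 975, and was likewise not in that list's thresholded form. Such peaks numbered 56 of 1692 in the replicate 2 ranked list and 99 of 3244 in the second list. The deposited text does not describe what removed them.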

How the results depend on the processing

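Of 92 recomputed values, 62 stayed within a set limit of the value reported and 30 went past it. Apart from the correlation, these values are counts or densities, which have no direction to change. The 62 include repeats of a count of 0, such as that of the 1 cytoskeletal gene. The limit was 1.5 times for counts and the 95% interval for the density and the correlation, so a density from 2.24 to 11.5 counts as within it. The count of 6 members with a summit became 5 in the second list across replicates, 1 at or above the median signal of the conservative list, 5 without upstream sequence, 10 with 5 kb upstream, 3 within 1 kb of an own start, 7 by nearest start and 6 by an overlap of 1 bp. With 1 replicate's own list in place of both, it ran from 1 to 3.

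For vesicle release the count of 3 became 1 in the second list, 0 at or above the median signal, 5 with 5 kb upstream, 1 within 1 kb of a start, and 0 in either replicate alone. The transmitter count of 0 became 1 in the second list, and 0 to 1 in single replicates. For potassium channels the count of 1 became 0 at or above the median signal, 2 with 5 kb upstream, and 0 in either replicate. The adhesion count of 1 was 0 to 1 in single replicates. The receptor count of 1 became 0 at or above the median signal, within 1 kb of a start and by nearest start, and was 0 to 1 in single replicates. The sensory count of 0 became 1 with 5 kb upstream and by nearest start, and was 0 to 1 in single replicates.

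The density of 5.56 per Mb fell to 0.795 at or above the median signal and 0.795 to 2.38 in single replicates, and was 8.80 with 5 kb upstream. Promoter summits, 3 of 7 in the conservative list, were 2 of 3 in replicate 1's own list and 0 of 1 in replicate 2's. AAATCA, at 2 of 7 summits within 50 bases, was at 1 of 7 in a window of 51 bases in all. It was at 3 of 3 summits in replicate 1's own list and at 1 of 1 in replicate 2's. The cause of these shifts was not tested. No paired analysis was possible because both replicates belong to 1 group and no test compares groups. Few members and unknown depth limit these counts, and control libraries were not analysed here.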
